A study of Danio rerio with 2 samples.

Results

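Dietary sugar, peptides, fat and vitamin A are taken up by enterocytes, the columnar cells of the intestinal epithelium, and 10 genes of that work are described here in zebrafish larvae after swim training. They were anpepb.1, mep1ba, slc5a1, slc15a1b, rbp2a, rbp2b, fabp2, fabp6, mogat2 and vil1, and mep1ba was listed under its older symbol mep1b. They were chosen by name, with earlier results of these data known. A probe was taken as theirs when its RefSeq accession belonged to that gene. This gave 17 probes of 43603 on the array and 10 genes of 12900 with a matched probe, and 5 of the 10 genes had more than 1 probe.

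The study set total RNA from 10 pooled larvae that had been swim-trained against total RNA from 10 pooled control larvae, each extracted whole. Both pools were of a wild-type strain, Zod2, a cross of Wageningen wild type and Tubingen wildtype, and were sampled at 10 days after fertilisation, at the end of the day. Swimming sessions of 3 hours were held each day between the ages of 5 and 10 days. The 2 pools were hybridised together on 2 Agilent arrays, with the trained pool in Cy5 on array 1 and in Cy3 on array 2, and the control pool in the other dye.

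With 1 pool per condition there were no biological replicates, so no test across fish was possible and all values describe these pools. The arrays were repeat measurements of the same RNA. Ratios are given as log2 of trained over control on each array, after background correction and loess normalisation, and as the mean of both arrays. A probe was said to pass the size rule when its ratio was at least 1.5-fold, or 0.58 on the log2 scale, in the same direction on both arrays. In whole larvae, more cells of a type and more RNA per cell cannot be told apart.

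Most probes gave a usable signal, and 30886 were well above background in both pools on both arrays. Across them array 1 and array 2 correlated with a Pearson r of -0.04 in the rebuilt ratios and 0.11 in the deposited ratios. Over all measured probes the ratios thus did not repeat between the arrays. Directions rest on the dyes named in the sample titles. The median difference between the arrays was 0.23 log2 units over all measured probes and 0.20 over the 17 probes of the absorption genes. Repeat spots of a probe had an SD of 0.08 in the mean ratio over 20 probes, and of 0.16 on array 1 and 0.16 on array 2. Probes of the same gene had an SD of 0.12 in the mean ratio over 6037 genes.

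In the enterocyte, peptidases and other enzymes anchored in the brush border finish digestion at the surface, and carriers driven by sodium or proton gradients move glucose and small peptides into the cell. Fatty acids, retinol and bile acids are bound inside the cell by small proteins of 1 family, the intracellular lipid-binding proteins, and fat is rebuilt into triglyceride for export. Villin bundles the actin of the microvilli that carry the brush border. Zebrafish larvae of this age have a working gut and take up food.

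Absorption genes leaned to higher levels in the trained pool, most of all the surface peptidase genes anpepb.1 and mep1ba, the retinol-binding gene rbp2b and the glucose carrier gene slc5a1. All 17 probes were well above background in both pools on both arrays, and none was saturated. At the brightest probe of each gene, 3 of 10 genes passed the size rule as higher in the trained pool and 0 as lower, where 0.638% and 0.054% of 11121 measured genes did. Counting a gene if any of its probes passed, 4 of 10 genes were higher and 0 lower, where 0.755% and 0.0809% of all measured genes were. By probe, 5 of 17 passed as higher and 0 as lower, where 0.476% and 0.0421% of all measured probes did. The count of 5 probes became 4 with median centring and 7 with the deposited ratios. Over all measured probes the count passing as higher was 147 as reported, 147 with median centring and 273 with the deposited ratios. Without regard to size, 6 of 10 genes were higher on both arrays, 0 lower on both and 4 opposite, where 24.3%, 22.1% and 53.6% of all measured genes were. Of the 17 probes 13 were higher on both arrays and 0 lower, where 22.9% and 23.2% of all measured probes were. The median ratio of the 10 genes was 0.38, with 0.27 on array 1 and 0.50 on array 2, and that of all measured genes was 0.00 (-0.0027). Because the 10 genes were chosen with earlier results of these data known, these shares describe them and are no independent test.

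**Figure D1:**
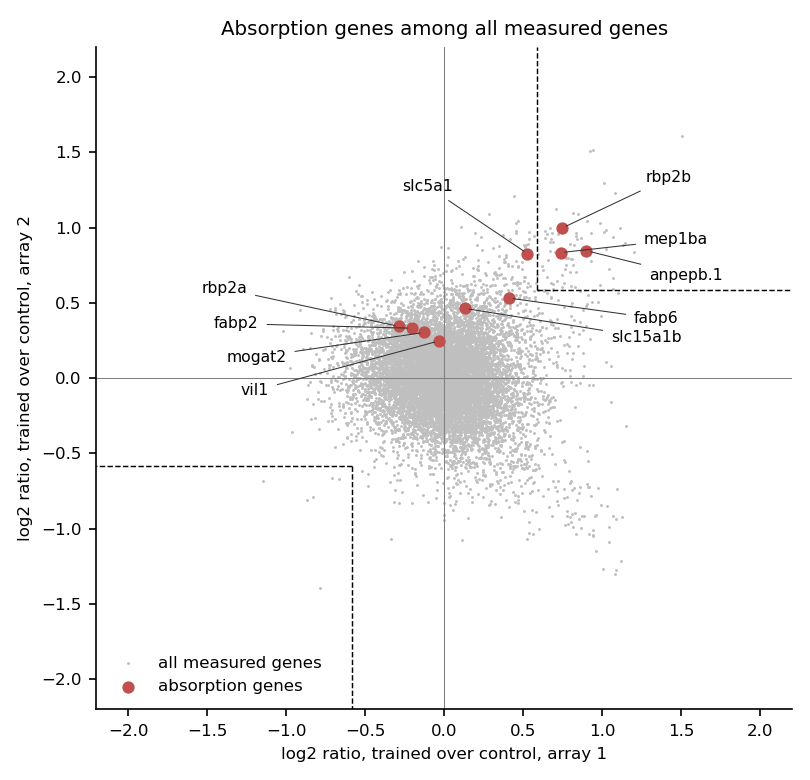
Log2 ratio of trained over control on array 1 (horizontal) and array 2 (vertical) for the brightest probe of each of 11121 measured genes, in grey, with the 10 absorption genes in red. Dashed corners mark 1.5-fold on both arrays. The genes rbp2b, mep1ba and anpepb.1 lie inside the upper corner, slc5a1 lies just left of it at 0.53 on array 1, and rbp2a, fabp2, mogat2 and vil1 lie above 0 on array 2 and below 0 on array 1.

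The surface peptidase gene anpepb.1 encodes aminopeptidase N, which cuts single amino acids from the front of peptides. Its brighter probe, A_15_P195051, had a normalised intensity of 2976 and 2686 in the trained pool on array 1 and array 2, against 1595 and 1494 in the control pool. Its other probe, A_15_P725681, had 978 and 1154 in the trained pool, against 625 and 686 in the control pool. On both probes the lower trained value lay above the higher control value. These are 2 readings of the same RNA per pool, so a lack of overlap here and below is no measure of spread between fish. The second probes of fabp2, mogat2 and vil1 also had values that did not overlap, for vil1 at ratios of only 0.22 and 0.23. The share of all measured probes without overlap was not counted. The log2 ratios were 0.90 and 0.85 for the brighter probe and 0.65 and 0.75 for the other, so both passed the size rule. With median centring the second probe stood at 0.50 on array 1 and no longer passed. With a mean of 0.87, or 1.83-fold, anpepb.1 stood at rank 25 of 11121 genes.

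The other surface peptidase gene, mep1ba, encodes the beta subunit of meprin, a metalloprotease that in mammals sits in the brush border and cuts within peptide chains. It had 1 probe, A_15_P175261, with intensities of 333 and 357 in the trained pool, against 200.0 and 200.4 in the control pool. The trained values lay apart from the control values. The ratios were 0.74 and 0.83, with a mean of 0.78 at rank 48 of all genes. This probe was dim, and the offset of 50 added in background correction pulls dim ratios towards 0. Without the offset its mean was 0.98, and with the deposited ratios 1.02, against 0.78 as reported.

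The carrier genes for sugar and peptides had unequal ratios, and neither passed the size rule at its brightest probe. The gene slc5a1 encodes SGLT1, the sodium-coupled carrier that takes up glucose and galactose, and it had 3 probes. Its brightest probe, A_15_P113884, had 1879.5 and 1923 in the trained pool, against 1305 and 1084 in the control pool. The next, A_15_P623211, had 1269 and 1122 in the trained pool, against 707 and 693 in the control pool. Trained and control values did not overlap on either probe. The ratios were 0.53 and 0.83 for the brightest, which missed the size rule on array 1, and 0.84 and 0.70 for the second, which passed.

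The third slc5a1 probe, A_15_P108225, was the dimmest of the 17. It carried the scanner's flag for a signal well above background in both pools on both arrays, and gave a ratio of 0.00 (0.0047) on array 1 and 0.29 on array 2. Its unnormalised spot signal on array 1 was 136 over a background of 92.5 in the trained pool, and 78 over 24 in the control pool. With the deposited ratios this probe stood at 0.60 and 0.85 and passed the size rule, so its value turned on the processing. The mean ratio of the brightest slc5a1 probe was 0.68, at rank 85 of all genes, and over the 3 probes the means spanned 0.62 log2 units.

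The gene slc15a1b encodes PepT1, the proton-coupled carrier of di- and tripeptides. Its probe had 1715 and 1883 in the trained pool, against 1566 and 1367 in the control pool. Both trained values lay above both control values. They are repeat readings of the same RNA in each pool, so this is no measure of spread between fish. The ratios were 0.13 and 0.46, with a mean of 0.30 at rank 698, and the size rule was not passed.

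Among the intracellular lipid-binding proteins the 4 genes had unequal ratios at their brightest probes. The genes rbp2a and rbp2b both encode cellular retinol-binding protein II, which holds retinol in enterocytes. The rbp2b probe, A_15_P622621, had 7555 and 7060.0 in the trained pool, against 4501 and 3536 in the control pool. Its ratios were 0.75 and 1.00, and with a mean of 0.87, or 1.83-fold, it stood at rank 26, next to anpepb.1. The rbp2a probe had 3297 and 4909 in the trained pool, against 4012 and 3872 in the control pool. Trained was the lower pool on array 1 and the higher on array 2, with ratios of -0.28 and 0.34 and a mean of 0.03. The ratio of rbp2b exceeded that of rbp2a by 1.03 on array 1 and 0.66 on array 2, which shows unequal ratios and not that rbp2a was unchanged.

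The fatty acid-binding gene fabp6 encodes the ileal bile acid-binding protein, and fabp2 the intestinal fatty acid-binding protein. The fabp6 probe had 47294 and 51718 in the trained pool, against 35589.7 and 35783 in the control pool. These values did not overlap, and the ratios of 0.41 and 0.53 gave a mean of 0.47, or 1.39-fold, at rank 228. With the deposited ratios fabp6 stood at 0.63 and 0.71 and passed the size rule, and it did not pass with the rebuilt ratios.

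For fabp2 the arrays disagreed at its brightest probe, A_15_P149406, which had 33122 and 44859 in the trained pool, against 38161 and 35656 in the control pool. The other fabp2 probe had 33238 and 38569 in the trained pool, against 29405 and 29688 in the control pool. The first probe was opposite on the arrays, at -0.20 and 0.33, and the second was higher in the trained pool on both, at 0.18 and 0.38. The ratio of fabp6 exceeded that of the first fabp2 probe by 0.61 on array 1 and 0.20 on array 2, and that of the second by 0.23 and 0.15.

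**Figure D2:**
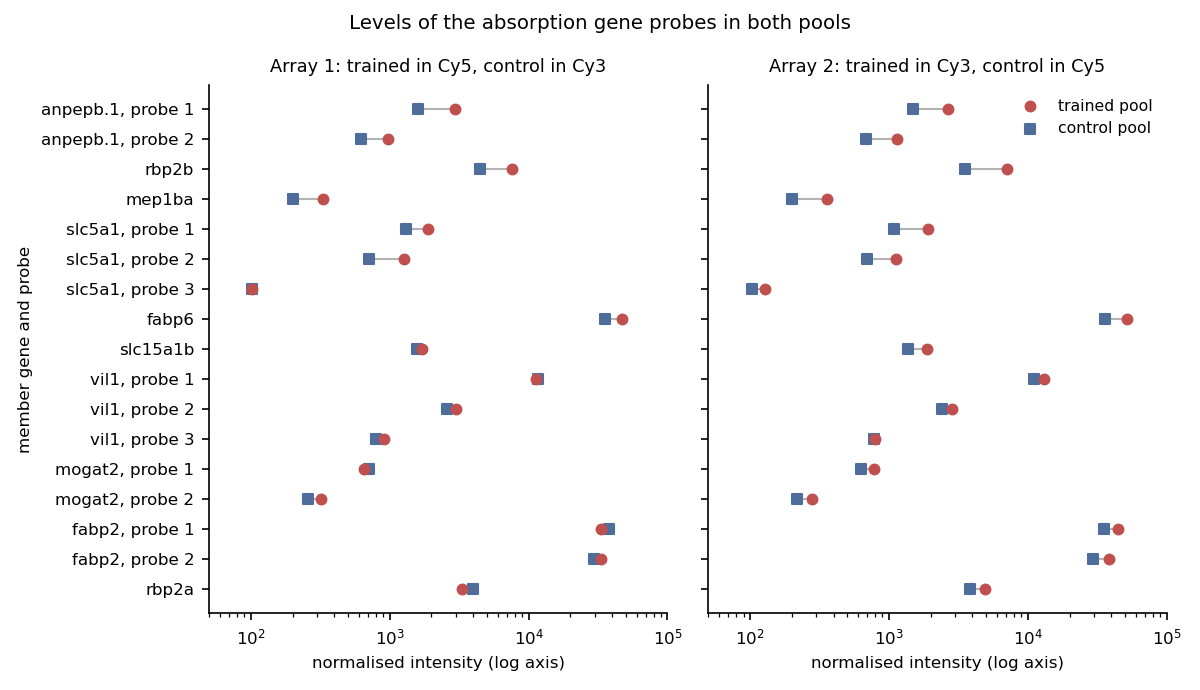
Normalised intensity (log axis) of each of the 17 probes in the trained pool (red circles) and the control pool (blue squares), on array 1 at left and array 2 at right, with genes ordered by mean ratio. The circles lie right of the squares on both arrays for anpepb.1, rbp2b, mep1ba and fabp6, whereas for rbp2a the order of the pools turns between the arrays.

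Fat rebuilding and the microvillus core gave small or opposite ratios. The gene mogat2 encodes the monoacylglycerol acyltransferase that starts triglyceride assembly in enterocytes. Its brightest probe had 651 and 776 in the trained pool, against 709.9 and 629 in the control pool, with ratios of -0.13 and 0.30. Its other probe had 323 and 278 in the trained pool, against 257 and 219 in the control pool, with ratios of 0.33 and 0.35. The probes thus differed in sign on array 1, and neither passed the size rule.

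The villin gene vil1 had 3 probes, and its brightest had 11344 and 13071 in the trained pool, against 11616 and 11019 in the control pool. The second had 3014 and 2851 in the trained pool, against 2585 and 2428 in the control pool. The third had 912 and 791 in the trained pool, against 801 and 787 in the control pool. The ratios were -0.03 and 0.25, 0.22 and 0.23, and 0.19 and 0.01, with means of 0.11, 0.23 and 0.10, and none passed.

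In the order of mean ratios from anpepb.1 to rbp2a, 3 of the 9 gaps between neighbours were wider than the SD of 0.12 between probes of a gene. That SD is the spread of single probes and not of a difference between genes. These lay between slc5a1 and fabp6 (0.21), between fabp6 and slc15a1b (0.17) and between slc15a1b and vil1 (0.19). The probe means of slc5a1 spanned 0.62, more than any of these gaps, and those of the other genes with several probes from 0.13 (vil1) to 0.25 (mogat2). The order was read at the brightest probes, so these gaps do not set the genes apart. The other neighbours, such as anpepb.1 and rbp2b, had gaps within the SD of 0.12. Among vil1, mogat2, fabp2 and rbp2a, the 4 genes at the lower end, the Cy3 channel was the brighter on both arrays at the brightest probe.

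The dye component of a probe, the mean over both arrays of its log2 ratio of Cy5 over Cy3, was towards Cy3 for 14 of the 17 probes, and for 51.9% of all measured probes. Its median was -0.10 over the 17 probes and -0.01 over all. For 13 of the 17 probes the ratio was above 0 on array 1, and for 17 of 17 on array 2. The share of all measured probes above 0 on each array was not counted. The median ratio of all measured genes was -0.0015 on array 1 and 0.016 on array 2. The part of dye in the 4 opposite genes was not tested.

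**Figure D3:**
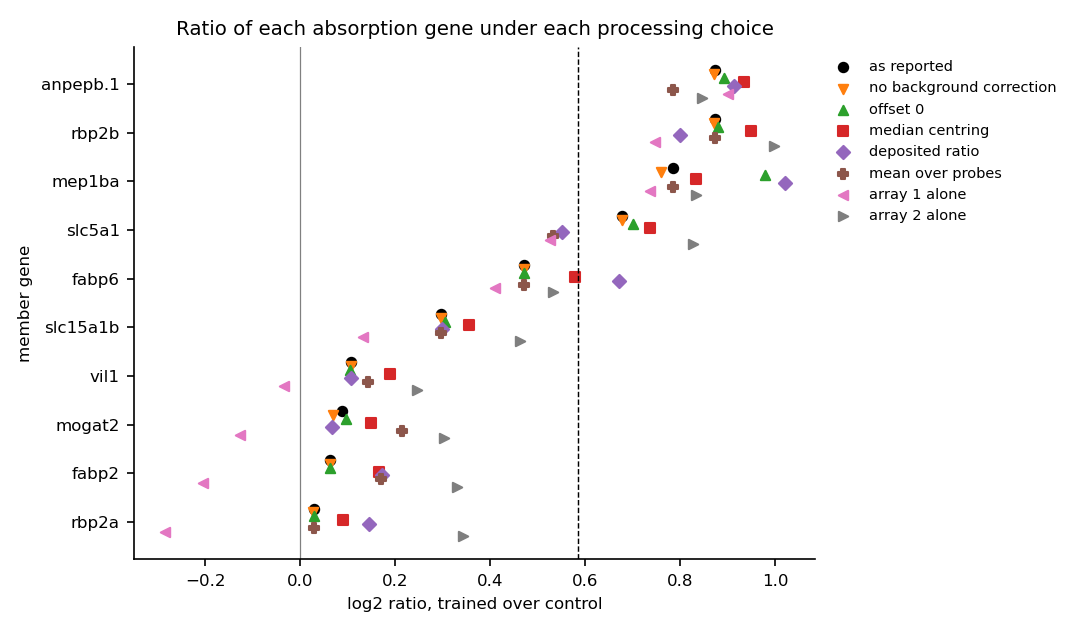
Log2 ratio of trained over control for each absorption gene under 8 ways of processing, including each array alone. The dashed line marks 1.5-fold. The genes anpepb.1, rbp2b and mep1ba lie right of the line under every setting drawn, and the 4 lowest genes lie left of 0 on array 1 alone.

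Other gut genes were set beside the 10 as 9 lists by role, with a median ratio of 0.15 over 93 measured genes. Not all of them are absorption genes, since the lists also hold transcription factors, structural genes and markers of other gut cells. Of these genes 44 were higher on both arrays, 12 were lower on both and 37 were opposite, and 2 passed the size rule, both as higher. The lists were described by counts and medians, with no test of the lists themselves. Each median below is followed by its value on array 1 and array 2.

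Both passing genes of the 9 gut lists were in the list of brush border enzymes. It had 7 of 10 measured genes higher on both arrays, 2 lower and a median of 0.26 (0.17 and 0.20). The adenosine deaminase gene ada, counted in this list although its enzyme is not itself anchored in the membrane, was at 0.77 and 0.72. In the opposite direction the intestinal alkaline phosphatase genes alpi.2 and alpi.1, named after their values were seen, had means of -0.40 and -0.10, with their other probes at -0.10 and -0.23, and did not pass. Beside mep1ba, the genes of the meprin alpha subunit mep1a.1 and mep1a.2 had means of 0.17 and -0.02.

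Sugar, amino acid and peptide carriers had a median of 0.17 (0.27 and 0.17), with 7 of 11 genes higher on both arrays, 2 lower and 0 past the size rule. The highest was slc6a19b, a neutral amino acid carrier, at 0.49 and 0.77, and the lowest was slc16a10, an aromatic amino acid carrier, at -0.08 and -0.26, with its other probe opposite at 0.27 and -0.56. Mineral and ion carriers had a median of 0.10 (0.16 and 0.12), with 4 of 8 genes higher, 0 lower and 0 past the rule. Its highest gene was slc26a3.2, of the chloride and bicarbonate exchangers, at 0.80 and 0.48.

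Genes of dietary fat and sterol absorption had a median of 0.08 (0.19 and 0.09), with 6 of 19 higher on both arrays, 3 lower on both, 10 opposite and 0 past the rule. The triglyceride synthesis gene dgat2 was at 0.53 and 0.41, and the lipoprotein gene apoa4a at -0.49 and -0.18, with its other probe at -0.33 and -0.26. Bile acid uptake and signal genes had a median of 0.18 (0.20 and 0.12), with 2 of 5 higher and 0 lower, and the ileal bile acid carrier gene slc10a2 was at 0.20 and 0.26. Retinoid and vitamin uptake genes had a median of 0.12, which was 0.11 on array 1 and -0.06 on array 2, with 3 of 8 higher and 3 lower. The gene dab2, an endocytic adaptor of the lysosome-rich enterocytes that absorb whole protein in zebrafish, was at 0.46 and 1.04, with its other probe at 0.15 and 0.23. The riboflavin carrier gene slc52a3-1 was at -0.29 and -0.17.

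Genes of microvillus and epithelium structure had a median of 0.13 (0.19 and 0.05), with 7 of 14 higher on both arrays and 0 lower. Their highest by the smaller array was tmigd1, at 0.39 and 0.19. Intestinal transcription factors had a median of 0.13 (0.04 and 0.16), with 6 of 13 higher and 2 lower. The gut homeobox gene cdx1b was at 0.51 and 0.25, with its other probe at 0.26 and 0.34, and klf5l at -0.11 and -0.15. Other intestine markers, from this and other lists, were less even than cdx1b. Opposite on the arrays were cdh17, at 0.39 and -0.24, and apoa4b.1, at 0.32 and -0.07. Higher on both, but near 0 on array 1, were cldn15la, at 0.03 and 0.38, and dpp4, at 0.07 and 0.50. For the list of goblet, enteroendocrine and Best4 cells the median was 0.15 (0.32 and 0.24), with 2 of 5 higher and 0 lower. Its measured genes were agr2, chga, gcga, ghrl and neurod1, so the median holds no marker of Best4 cells. The proglucagon gene gcga was at 0.46 and 0.29, with its other probe at 0.33 and 0.17. In these 3 lists 0 genes passed the size rule.

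**Figure D4:**
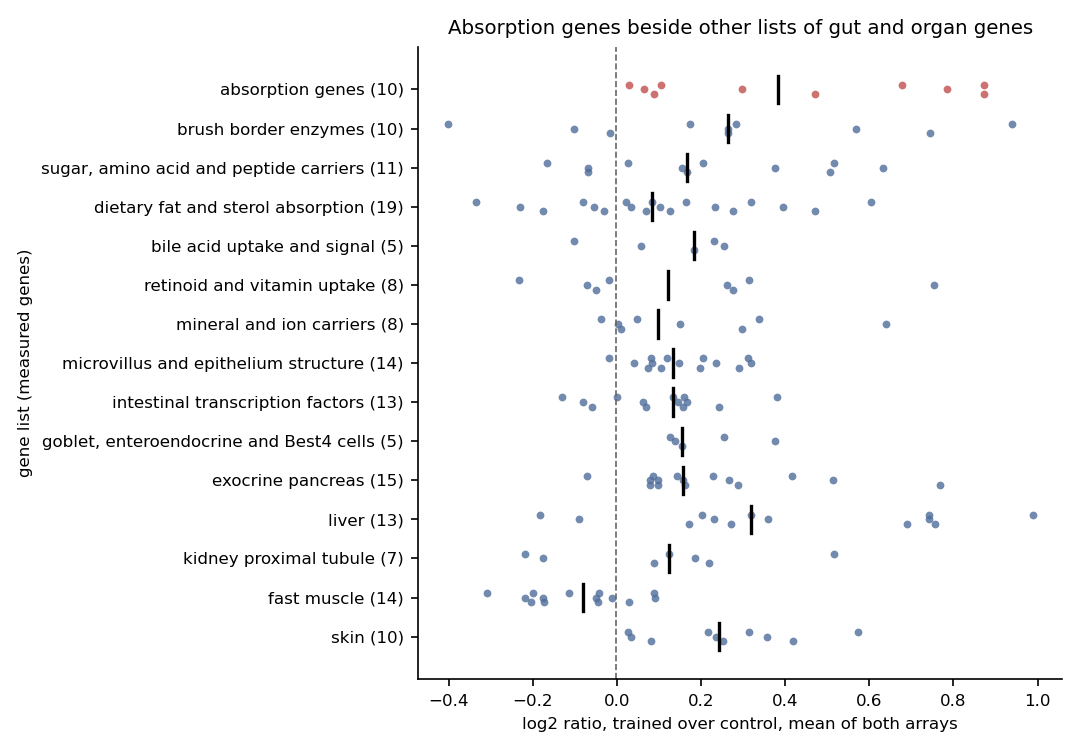
Log2 ratio of trained over control (mean of both arrays) of each measured gene in the absorption genes (red) and 14 other lists (blue), with the number of measured genes in brackets. Black bars are list medians and the dashed line is the median of all measured genes. The absorption genes have a median of 0.38, liver genes 0.32 and fast muscle genes -0.08. On array 1 alone the medians of liver (0.35), goblet, enteroendocrine and Best4 cells (0.32), skin (0.32) and kidney (0.28) exceed that of the absorption genes (0.27).

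Markers of other organs in the whole larvae were measured in the same way. Of those with a probe, cel.2 of the exocrine pancreas and slc5a2 and slc13a3 of the kidney were not well above background in both pools on both arrays, and the counts below leave them out. Liver genes had a median of 0.32 (0.35 and 0.46), and 9 of 13 were higher on both arrays and 2 lower. Their summed intensity was 341121 and 334933 in the trained pool, against 241438 and 275082 in the control pool. The plasma protein gene ahsg1, at 1.01 and 0.97, and apoa2, at 0.67 and 0.84, passed the size rule. Skin genes had 7 of 10 higher and 0 lower, with a median of 0.24 (0.32 and 0.21), sums of 577497 and 528394 in the trained pool against 461613 and 490727 in the control pool, and cyt1 at 0.41 and 0.74, with its other probe at -0.04 and 0.21.

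Exocrine pancreas genes had 5 of 15 higher and 1 lower, with a median of 0.16 (0.24 and -0.02). Their sums were 697331 and 660318 in the trained pool, against 586059 and 633323 in the control pool, and the amylase gene amy2a passed at 0.83 and 0.70. Kidney proximal tubule genes, some of whose roles the gut shares, had 2 of 7 higher and 2 lower, with a median of 0.12 (0.28 and -0.03). Their sums were 2474 and 2180 in the trained pool, against 1890 and 1863 in the control pool. In that list pdzk1 was at 0.60 and 0.43, and slc20a1a at -0.19 and -0.24, with its other probe opposite at -0.25 and 0.13.

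Fast muscle genes had 0 of 14 higher and 3 lower, and their median of -0.08 (0.13 and -0.17) was 0.05 with median centring. Their sums were 1458251 and 1291072 in the trained pool, against 1356768 and 1579232 in the control pool, and tnnt3a was at -0.43 and -0.18. For the 10 absorption genes the sums were 110167 and 129242 in the trained pool, against 99256 and 94640 in the control pool. Most of each sum came from fabp6 and fabp2, which stood at 47294 and 33122 in the trained pool on array 1. The part of liver, skin, pancreas or kidney in the ratios of the absorption genes was not tested.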

How the data were processed

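Per the file headers, the authors' deposited scanner files hold the median intensity and background of each spot in Cy3 and Cy5, flags (the other unit, not measurements) and a log10 ratio of Cy5 over Cy3. The submitters' processing notes name Agilent Feature Extraction, version 10.5.1.1. Per the labels, 400 ng of RNA per fish was pooled and 100 ng labelled. The deposited series value table equals that ratio, turned in sign on array 2.

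Ratios were rebuilt with limma 3.58.1 in R 4.3.3: normexp with an offset of 50, and loess in which control spots and outlier spots had weight 0. The sign of array 2 was turned, spots of a probe and then both arrays were averaged. Intensities were scaled by Aquantile, include the offset, and are not compared between probes. The sums of a list add them over its brightest probes and so follow the brightest genes. Outlier flags removed 13 spots. RefSeq accessions (table GRCz12tu) named 25173 probes and left 18430 unnamed. A gene was read at its brightest measured probe. Python 3.11.15 was used with pandas 2.3.3. The number of arrays limits the precision.

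The genes and lists were chosen with earlier results of these data known. Named were all members and, per list, up to 3 passing genes in each direction or else the highest and lowest gene of the same sign on both arrays. The intestine markers cdh17, apoa4b.1, cldn15la and dpp4 were named besides. The rule also named 1 gene that is counted in its list and not reported here. No genes were ranked by likeness of pattern. Promoter motifs were not analysed here. The gene mep1ba, also in the enzyme list, was counted once. Alternatives were other background, normalisation, ratio source, detection filter, probe rule, array and threshold.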

Additional observations from a re-analysis of the deposited data

How the results depend on the processing

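With 1 pool per condition, ranges across settings show processing and not spread between fish. No paired analysis was possible because both hybridisations carry the same 2 pools. All 10 absorption genes kept the sign of their mean ratio in the 7 alternatives run on both arrays, although the value table of the series repeats the deposited ratio. The looser detection filter left the values of all 10 genes as reported. Averaging over probes could not change the 5 genes with 1 probe. In the 7 alternatives the genes anpepb.1, rbp2b and mep1ba passed the size rule each time as genes, from 0.79 to 0.93, 0.80 to 0.95 and 0.76 to 1.02. The gene fabp6 passed in 2 of them, the deposited ratio and its repeat in the value table, and slc5a1 ranged from 0.53 to 0.74 and passed in 0. On array 2 alone slc5a1 stood at 0.83 and was past 1.5-fold. The number of absorption genes past the rule was 0 at 2-fold and 5 at 1.2-fold, the added ones being slc5a1 and fabp6. Of all 30886 measured probes 17 were higher at 2-fold and 967 at 1.2-fold. That counts probes, and the share of all measured genes at these thresholds was not counted.

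Over all probes, 147 were higher and 13 lower in the trained pool as reported. An offset of 0 gave 230 and 35, the deposited ratio (and, identically, the value table of the series) gave 273 and 69, and median centring 6 lower. A 2-fold rule gave 17 and 1, and a 1.2-fold rule 967 and 363. Single arrays gave 496 to 614 higher and 440 to 503 lower, because 1 array was then enough to pass. List medians on single arrays ran from -0.061 to 0.11 for retinoid and vitamin uptake, 0.24 to 0.32 for goblet, enteroendocrine and Best4 cells, -0.020 to 0.24 for exocrine pancreas, 0.35 to 0.46 for liver, -0.029 to 0.28 for kidney and -0.17 to 0.13 for fast muscle. Median centring put fast muscle at 0.047, and the cause was not tested.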

Other observations

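Other absorption genes were singled out after their values were seen. The neutral amino acid carrier gene slc6a18 was at 0.39 and 0.63 on array 1 and array 2. For the sodium-coupled sugar carrier gene slc5a9 the probes disagreed, with 0.35 and 0.69 at the brightest and 0.00 (-0.0018) and -0.18 at the other. The liver-type fatty acid-binding gene fabp1a was at 0.80 and 0.41, and its other probe at 0.30 and 0.70. In contrast, the related gene fabp1b.1 was at -0.04 and -0.13, and its other probes at 0.27 and -0.08, and 0.16 and -0.25. The peptidase gene naaladl1 was at 1.06 on array 1 and 0.08 on array 2 at its brightest probe, and its other probes were at 0.58 and 0.38, 0.89 and 0.40, and 0.34 and -0.23. No probe of these genes passed the size rule.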
